A study of Mus musculus with 6 samples.

Results

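The 6 genes known as markers of perivascular resident macrophages, Lyve1, Folr2, Vsig4, Cbr2, Retnla and Fcna, were described in macrophages of 2 mouse tissues. They were taken by gene symbol from a table of 50600 genes, and all 6 were found. They had been chosen because they differ between the tissues in these same libraries, so their islet and fat values are given as a description, with no test.

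The macrophages came from untreated C57BL/6J males, 12 weeks old and fed chow, and were sorted either from the islets of the pancreas or from epididymal fat, a visceral depot of white adipose tissue. The same gate served both tissues: cells that excluded DAPI, a dye that enters dead cells, and carried CD64, F4/80 and CD45, which together mark macrophages. Each tissue gave 3 libraries from 10 ng of total RNA, with the numbers 2, 4 and 6, and the series' design text calls the animals autologous. The sources used here do not say whether 1 animal or several went into a library, so p-values measure the spread between these libraries.

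Many tissues hold resident macrophages of at least 2 broad kinds: cells along blood vessels that carry Lyve1 and Folr2 and little MHC class II, and cells with much MHC class II and Cx3cr1. The first kind takes up proteins and hyaluronan around vessels and is largely maintained without input from blood monocytes. Lyve1 encodes a hyaluronan receptor that lymphatic endothelium carries as well. Folr2 encodes a folate receptor anchored in the membrane, and Vsig4 a receptor for fragments of complement C3 that is well known from liver macrophages. Cbr2 encodes a carbonyl reductase, an intracellular enzyme. Retnla encodes a secreted resistin-like protein that interleukin 4 induces through STAT6, and Fcna encodes ficolin A, a secreted lectin that starts the lectin pathway of complement.

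Total counts were 4089980 to 6923475 per islet library and 7450890 to 9235591 per fat library. Levels are given as CPM, counts per 1000000 of the scaled library. Of 8 macrophage genes, all with counts in each library, 6 did not pass the test between tissues and 2 were lower in islet macrophages. These were Lyz2, lysozyme, 2.51-fold lower, and Mertk, a receptor for dying cells, 8.26-fold lower (edgeR adjusted p = 0.0237 and 5.86e-04). The CSF-1 receptor gene Csf1r had a mean of 1996 ± 514 CPM in islet libraries and 2084 ± 340.4 CPM in fat libraries (SD, n = 3 each). The F4/80 gene Adgre1 had 767 ± 291 and 511 ± 63.9 CPM, and neither passed. Islet hormone genes took 0.318% to 0.717% of islet counts and at most 4.97e-04% of fat counts, and the part of such RNA in the results was not tested. Islet libraries 2 and 4 stood apart from the rest in 6 heat shock genes, which took 9.22% and 10.3% of their counts, against 0.775% in islet library 6 and 0.250% to 0.280% in fat libraries. The part of this in the results was not tested. Counts of calls are therefore also given with islet library 6 as the only islet library where they moved by over 1.5 times, and such calls have no islet replicates and take their spread from the fat libraries alone. Fibroblast genes took 0.00961% to 0.0430% of fat counts and adipocyte genes 0.00156% to 0.00419%.

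The 6 markers together held 36669, 29748 and 39322 counts in fat libraries 2, 4 and 6, or 0.397%, 0.399% and 0.514% of all counts. In islet libraries 2, 4 and 6 they held 6, 12 and 17 counts. In bulk RNA, fewer cells that carry a gene and less RNA of it per cell cannot be told apart.

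**Figure D1:**
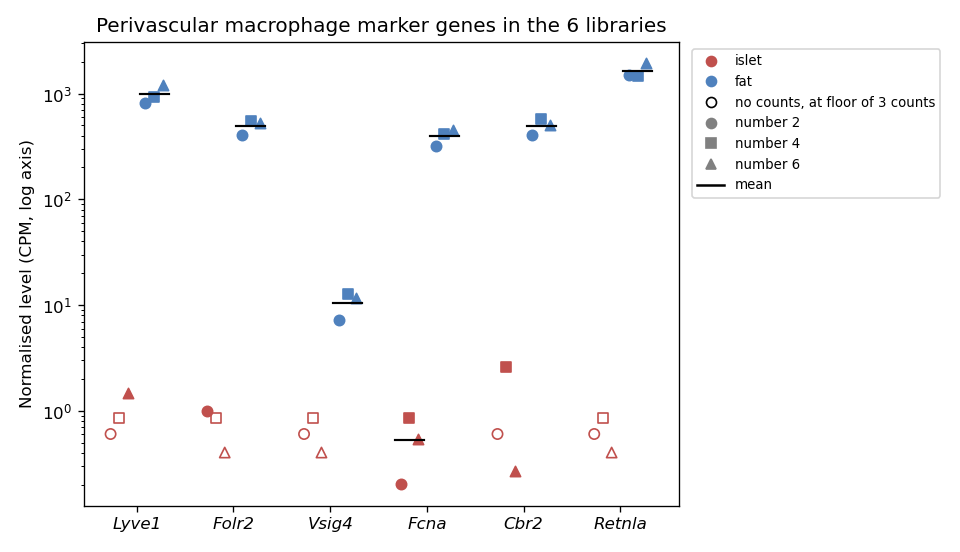
Level of each of the 6 genes (CPM, log axis) in every islet and fat library, with 1 symbol per library number, black lines for means of groups without a 0, and open symbols for libraries with no counts, drawn at the level of 3 counts. Fat libraries sit between 318 and 1926 CPM except for Vsig4 at 7.28 to 12.7 CPM, and islet libraries sit at 2.58 CPM or lower.

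Lyve1 (ENSMUSG00000030787.4, GRCm38 chromosome 7, 110850607 to 110863239, minus strand) stood at 821, 922 and 1206 CPM in fat libraries 2, 4 and 6. It had 0, 0 and 11 counts in islet libraries 2, 4 and 6, so its islet reads all came from library 6, at 1.48 CPM. Pooled over libraries, the fat level was 1403-fold higher, with a 95% counting interval of 784 to 2811. These intervals take in the counting error of pooled reads alone and leave out the spread between libraries. Reads were not tied to single molecules by identifiers, so the intervals may be too narrow even for counting error. A surface receptor found at 821 CPM or more in each fat library was thus without a read in islet libraries 2 and 4, where its fat level would have given 4875 and 3428 counts.

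Folr2 (ENSMUSG00000032725.10, chromosome 7, 101839988 to 101857194, minus strand) stood at 409, 549 and 522 CPM in fat libraries 2, 4 and 6. It had 5, 0 and 0 counts in islet libraries 2, 4 and 6, the reverse of the Lyve1 pattern among islet libraries. The pooled fat level was 1539-fold higher (95% counting interval 659 to 4741). Without islet library 2 no islet count was left, and the floor of 3 counts per library then gave a log2 ratio of at least 9.62 in place of 10.52. Of its exonic length, 63.1% overlaps Gm10602 on the opposite strand, and the sources used here do not state whether the counting used strand. Gm10602 itself had 29 to 45 counts in fat and 3 or 4 counts in islet libraries, and Folr2 had 4137 to 4441 in fat. These counts cannot show how many reads over the shared exons were counted for neither gene.

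Vsig4 (ENSMUSG00000044206.3, chromosome X, 96247203 to 96293438, minus strand) was the low one of the receptors, with 77, 96 and 99 counts in fat libraries 2, 4 and 6, or 7.28, 12.7 and 11.6 CPM. No islet library held a count. With a floor of 3 counts per library, islet macrophages were at least 16.9-fold lower. Its low fat level limits this bound: at the fat level, islet libraries 2, 4 and 6 would have held 52.4, 36.8 and 78.3 counts. Of 3 liver macrophage markers, Clec4f had no counts in any of the 6 libraries. Cd5l had 42, 13 and 48 counts in fat and 3, 0 and 13 in islet libraries 2, 4 and 6, and Clec1b had 6, 0 and 2 in fat and 8, 0 and 1 in islet libraries.

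Cbr2 (ENSMUSG00000025150.10, chromosome 11, 120729489 to 120732114, minus strand) stood at 402, 578 and 503.8 CPM in fat libraries 2, 4 and 6. It had 0, 9 and 2 counts in islet libraries 2, 4 and 6, so library 4 was the highest for it, at 2.58 CPM. The pooled fat level was 699-fold higher (95% counting interval 391 to 1401). Without islet library 4 the ratio of the means rose from 9.02 to 11.85 on the log2 scale, so that library decided the size of the ratio.

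Retnla (ENSMUSG00000061100.3, chromosome 16, 48842551 to 48844461, plus strand) was the most abundant of the 6 in fat, at 1509.9, 1474 and 1926 CPM in fat libraries 2, 4 and 6. It had no count in any islet library. Islet macrophages were at least 2627-fold lower with the floor of 3 counts per library. At the fat level the 3 islet libraries would have held 8119.7, 5709 and 12149 counts, which makes Retnla the deepest absence among the 6.

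Fcna (ENSMUSG00000026938.10, chromosome 2, 25624666 to 25628030, minus strand) stood at 318, 410.4 and 456 CPM in fat libraries 2, 4 and 6. It had 1, 3 and 4 counts in islet libraries 2, 4 and 6, and was the one gene of the 6 with a read in each islet library. The pooled fat level was 771-fold higher (95% counting interval 391 to 1786). An antisense gene, Fcnaos, overlaps 6.55% of its exonic length and had 14 to 43 counts in fat and none in islet libraries.

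All 6 genes passed the filter on low counts, which they could do through the fat libraries alone. All 6 were called lower in islet macrophages, and in all 6 every islet library lay below every fat library. Since the genes were chosen on this contrast, nothing is read from that. Over the 12152 genes tested, 10.5% were called lower in islet and 8.97% higher with edgeR (quasi-likelihood test, adjusted p by Benjamini-Hochberg below 0.05). In 22.3% of tested genes every islet library lay below every fat library, and 1.93% had no islet count.

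Residual islet reads fell unevenly on the 6 genes. In each islet library the gene with the highest percentage of its fat level, picked from these same counts, served as the reference. In islet library 6, Lyve1 stood at 0.151% of its mean fat level (exact 95% binomial interval 0.0753% to 0.270%). At that same percentage library 6 would have held 18.3 counts of Retnla and 5.52 of Folr2, and it held 0 of each. It would also have held 4.42 counts of Fcna and 5.54 of Cbr2, against 4 and 2 seen.

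In islet library 4, Cbr2 stood at 0.521% of its mean fat level (0.238% to 0.990%), which would correspond to 29.8 counts of Retnla, 17.9 of Lyve1 and 8.98 of Folr2. The library held 0 of all 3. In islet library 2, Folr2 stood at 0.204% (0.0663% to 0.477%), which would correspond to 16.6 counts of Retnla and 9.96 of Lyve1, again with 0 seen. The highest percentage fell on a different gene in each islet library, but its interval overlapped those of other genes in each library, Fcna among them. The interval of Retnla lay below that of the highest gene in all 3 islet libraries, with upper bounds of 0.0454%, 0.0646% and 0.0304%. Because the highest gene was picked from the same counts, such a gap is a description and no test. Islet library 4 also held the most acinar RNA, with 0.00609% of counts from 6 acinar genes against 4.02e-04% and 0.00100% in islet libraries 2 and 6, and the part of other pancreatic cells in these traces was not tested.

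**Figure D2:**
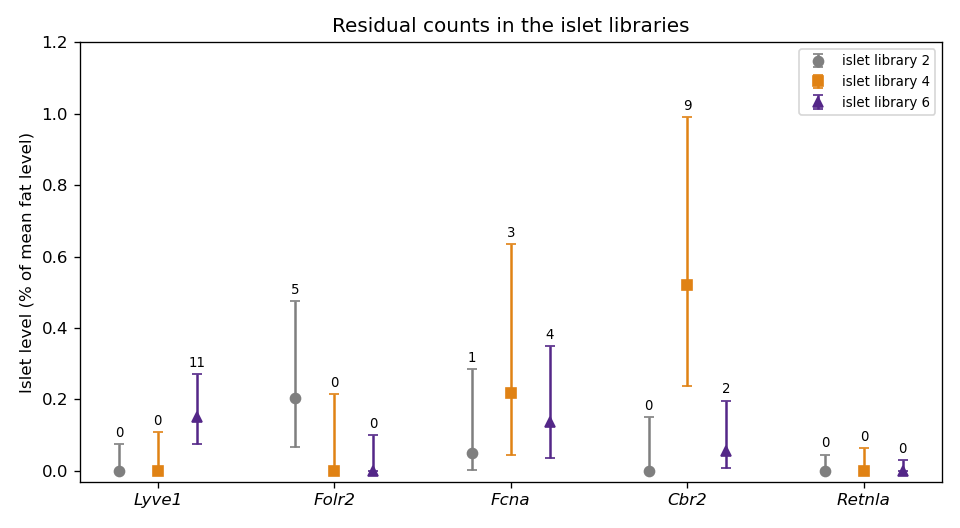
Islet level of 5 of the genes as a percentage of the mean fat level, by islet library, with exact 95% binomial intervals and the read count above each point. Lyve1 is above 0 in library 6 alone, Folr2 in library 2 alone and Cbr2 chiefly in library 4, while Retnla has 0 counts in all 3. Vsig4, with 0 counts and intervals up to 10.0%, is not drawn.

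Across 24 other markers of resident macrophages, the median islet level was 1.25%, 1.36% and 1.10% of the fat level in islet libraries 2, 4 and 6, and 6, 6 and 7 of them had no counts. Some stood at like percentages in the 3 libraries, such as Wwp1, a ubiquitin ligase gene, at 4.79%, 3.29% and 3.99%. The genes that follow were picked because they were uneven. F13a1, the coagulation factor XIII subunit that resident macrophages make, stood at 0.0685%, 0.665% and 0.122% of its fat level in islet libraries 2, 4 and 6, highest in library 4 like Cbr2. Cd163, the haemoglobin scavenger receptor, stood at 0.0320%, 0.422% and 0.123%. Timd4, a receptor for phosphatidylserine on dying cells, had 0, 0 and 14 counts, all in library 6 as with Lyve1. Gas6, a bridging protein between dying cells and macrophages, had 31, 4 and 13 counts, highest in library 2 as with Folr2.

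To compare levels between genes, fat values were divided by exon length, giving CPM per kb. On that scale Retnla stood at 2732 ± 419 in fat (SD, n = 3), rank 12 of the 12152 tested genes. Cbr2 (373 ± 66.7), Lyve1 (337 ± 68.4), Folr2 (319 ± 48.1) and Fcna (288 ± 51.2) formed a band at ranks 81 to 104. Vsig4 stood at 7.11 ± 1.95, rank 4337. Retnla was highest and Vsig4 lowest in each fat library, while Lyve1 had rank 2 in library 6, 3 in library 2 and 4 in library 4, counted among the 6 genes. Neighbours in the band did not differ beyond their spread, though Fcna came below the other 3 in each fat library, and with the longest transcript in place of all exons Folr2 rose to 409.9 and Cbr2 to 446. The Folr2 level may be too low if reads over its overlap with Gm10602 were left uncounted.

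**Figure D3:**
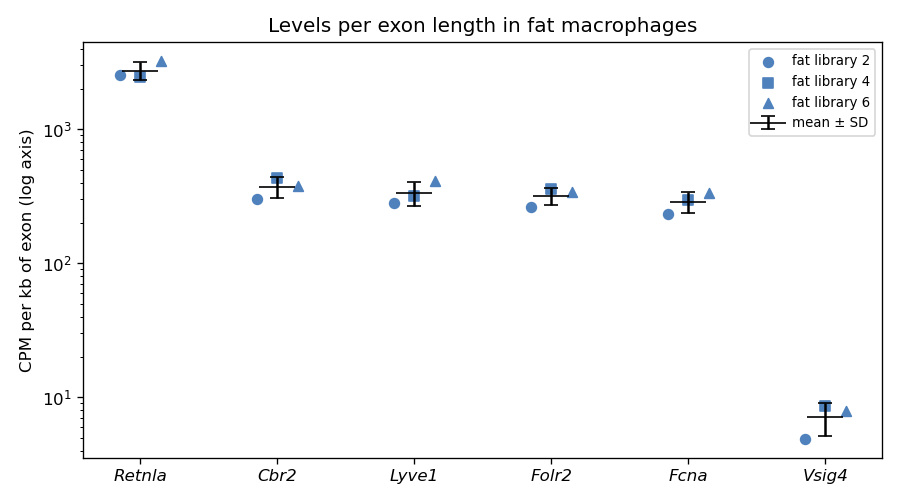
Level per kb of exon (log axis) of the 6 genes in fat libraries 2, 4 and 6, with mean and SD. Retnla lies at 2462 or higher, 4 genes share a band between 232 and 436, and Vsig4 lies below 10.

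Among the fat libraries, the spread of each of these genes lay above the median of genes at a like level, a difference that was not tested. Coefficients of variation over the 3 fat libraries were 20.3% for Lyve1, 15.1% for Folr2, 27.4% for Vsig4, 17.9% for Cbr2, 15.3% for Retnla and 17.8% for Fcna. Genes within 2-fold of each mean had median values of 12.8%, 12.7%, 21.1%, 12.7%, 12.5% and 12.2%. Lyve1, Retnla and Fcna were highest in fat library 6, and Folr2, Cbr2 and Vsig4 in fat library 4. Fat library 2 was lowest for 5 of the 6, and for Retnla fat library 4 was, so the 6 spreads are not separate instances.

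Other cells of fat could carry some of these genes, so their markers were read beside them. The 6 lymphatic endothelial markers together took 0.00100%, 5.77e-04% and 1.31e-04% of counts in fat libraries 2, 4 and 6, while Lyve1 was highest in fat library 6. Prox1, the factor that defines lymphatic endothelium, had 13, 1 and 7 counts there beside 8678, 6949 and 10249 of Lyve1. Fibroblast markers took 0.0430%, 0.0308% and 0.00961% in the same libraries, lowest where Lyve1 was highest. Adipocyte markers took 0.00369%, 0.00419% and 0.00156%, highest in fat library 4, as were Folr2, Cbr2 and Vsig4. The part of these cells in the results was not tested. Markers of large peritoneal macrophages took 0.00714% to 0.00996% in fat and 6.07e-04% to 0.00131% in islet libraries, and their defining factor gene Gata6 had 12, 4 and 8 counts in fat libraries 2, 4 and 6.

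The 6 genes were compared with their relatives by sequence or function. Of 15 such genes, 4 had no count in any library and 6 were abundant enough to be tested. Of those 6, edgeR and limma voom called 0 and DESeq2 called 1, and 3 had an unadjusted p under 0.05 in edgeR. Over all genes tested, edgeR called 19.4% in either direction. Folr1, the neighbouring folate receptor gene, had 4 counts in islet library 6 and 3 in fat library 4. Retnlb had no counts, Retnlg had 1, 3 and 1 counts in fat libraries 2, 4 and 6, and Fcnb, the other mouse ficolin gene, had none. Retn, the resistin gene and also in the adipocyte list, had 15, 31 and 10 counts in these fat libraries. It had none in islet libraries and was not tested. Cbr1, another carbonyl reductase gene, had a mean of 9.17 ± 3.59 CPM in fat and 11.7 ± 3.61 CPM in islet libraries (SD, n = 3).

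The genes next to them on the chromosome were mixed. Of the 12 nearest protein-coding neighbours, 1 on each side, 6 were abundant enough to be tested and 3 of those were called, beside 19.4% of all genes tested in either direction. Rnf141 and Mrvi1 beside Lyve1 were lower in islet macrophages. Mrvi1 fell by 6.44 ± 0.88 on the log2 scale (SE) and Rnf141 by 2.96 ± 0.44, with edgeR adjusted p = 0.00158 and 0.00232. Msn, which lies 78.7 kb from Vsig4 and encodes the cytoskeletal linker moesin, was higher by 1.51 ± 0.28 (adjusted p = 0.00654). Inppl1, 1.76 kb from Folr2, differed by 0.15 ± 0.27 and did not pass (adjusted p = 0.754).

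Promoter sequence was taken from RefSeq on GRCm38.p6, 250 bases before to 50 after each start site, and 5 of the 6 genes had an entry, Folr2 with 2 starts. Since the 6 genes share 1 pattern between tissues, 5 short motifs of macrophage factors were searched on both strands. The Maf half-site TGCTGAC, which reads GTCAGCA on the other strand, was found in Retnla, Cbr2 and Fcna, and these 3 promoters are shown because they share it, with the match in capitals.
Retnla, chr16:48842359-48842658, plus strand: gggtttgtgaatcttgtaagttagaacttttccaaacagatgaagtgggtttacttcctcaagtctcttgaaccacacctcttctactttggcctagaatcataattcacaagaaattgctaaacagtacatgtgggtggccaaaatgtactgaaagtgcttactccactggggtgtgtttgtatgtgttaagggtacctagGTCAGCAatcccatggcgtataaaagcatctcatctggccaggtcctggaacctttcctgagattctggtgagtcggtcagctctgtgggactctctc
Cbr2, chr11:120731972-120732271, minus strand: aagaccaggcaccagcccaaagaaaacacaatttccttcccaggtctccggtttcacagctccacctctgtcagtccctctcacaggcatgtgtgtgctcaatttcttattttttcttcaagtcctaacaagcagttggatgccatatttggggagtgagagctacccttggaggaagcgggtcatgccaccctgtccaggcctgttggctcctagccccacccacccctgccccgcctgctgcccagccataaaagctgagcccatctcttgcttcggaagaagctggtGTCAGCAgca
Fcna, chr2:25627925-25628224, minus strand: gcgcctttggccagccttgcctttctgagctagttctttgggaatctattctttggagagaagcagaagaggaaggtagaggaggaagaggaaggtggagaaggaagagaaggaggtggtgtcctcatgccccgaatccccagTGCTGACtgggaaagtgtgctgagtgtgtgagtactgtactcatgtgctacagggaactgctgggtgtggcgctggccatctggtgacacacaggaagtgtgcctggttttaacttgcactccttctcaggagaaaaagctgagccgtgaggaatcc

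The first base of the match lies 48 bases before the start in Retnla, 107 before it in Fcna and 41 after it in Cbr2. These are distances from RefSeq starts, which in all 3 genes lie inside the gene spans given above from GENCODE. Counted by gene, 3 of 5 held the half-site, beside 5.28% of all 27025 genes with promoters and 4.44% of the genes tested. The purine box GAGGAA, the core bound by the macrophage factor PU.1, was found in Retnla, Cbr2, Fcna and Vsig4, and in 31.3% of all genes. The STAT6 pattern, TTC and GAA with any 4 bases between, was found in Retnla, at 145 bases before the start, and in Cbr2, and in 8.01% of all genes. The C/EBP pattern TTGCNNAA was found in Retnla (12.2% of all genes) and a pattern of interferon regulatory factors, GAAA repeated after any 2 bases, in 0 of the 5 (3.99%). No match overlapped one of another motif. A match is a run of letters and not a shown binding site.

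Genes of the wider resident macrophage program were lower with the 6. Of 24 other markers, 22 fell in islet macrophages, 0 rose and 2 did not pass in edgeR; 0 rose too in DESeq2, in limma voom and by unadjusted p below 0.05. Their median log2 difference was -6.52, beside 0.01 over all genes tested. Ccl24, an eosinophil-attracting chemokine, averaged 244 ± 12.7 CPM in fat and had 2 islet counts, a pooled ratio of 1927 (95% counting interval 533 to 15915; edgeR adjusted p = 4.52e-05). Wwp1 fell by 4.63 ± 0.29 on the log2 scale (SE, adjusted p = 7.33e-05), and Mrc1, the mannose receptor, averaged 4069 ± 211 CPM in fat libraries and 102 ± 52.7 CPM in islet libraries (SD, n = 3). Cd209b, Cd209d and Cd209g had no islet counts and were at least 209-fold, 135-fold and 260-fold lower. Ninj1, a gene for a membrane protein, did not pass, with a log2 difference of -1.06 ± 0.62. This list was written with earlier results of these libraries known and is no independent evidence of direction.

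**Figure D4:**
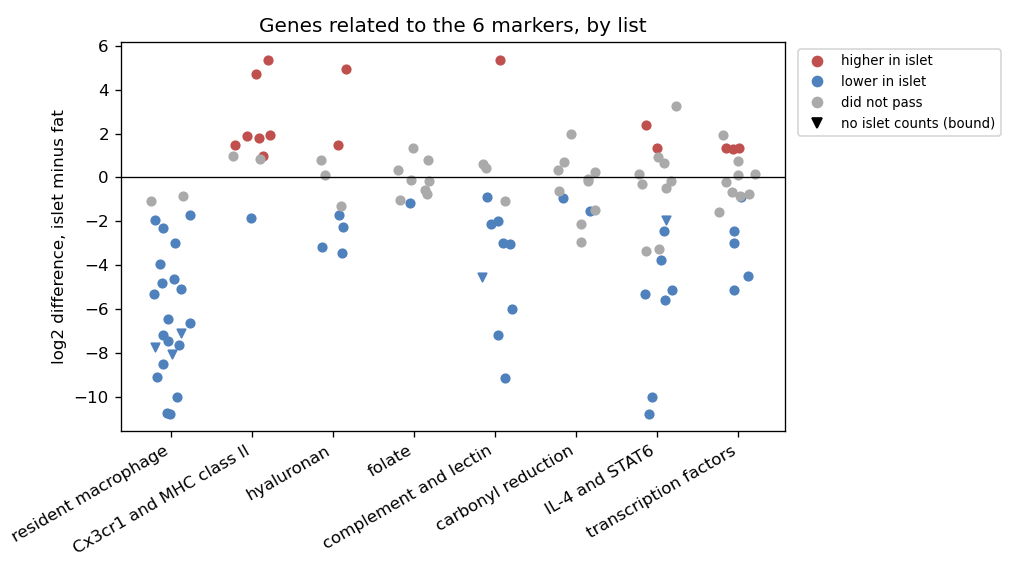
Log2 difference, islet minus fat, of each tested gene in 8 lists, coloured by its call in edgeR, with triangles for genes that had no islet counts, drawn at their bound. In the list of resident macrophage markers 22 of 24 genes are called lower, and in that of Cx3cr1 and MHC class II 7 of 10 are called higher. In those of folate and carbonyl reduction 8 of 9 and 10 of 12 did not pass. Over all genes tested, 10.5% are called lower and 8.97% higher.

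The genes that mark the other kind of tissue macrophage went the other way. Of 10 genes of the Cx3cr1 and MHC class II list, 7 rose, 1 fell and 2 did not pass, with a median log2 difference of 1.64. Itgax, the CD11c integrin subunit, rose 40.6-fold (690.4 ± 163 against 17.0 ± 11.1 CPM, SD, n = 3; edgeR adjusted p = 3.51e-04). Cx3cr1, the fractalkine receptor, rose 26.2-fold (adjusted p = 2.02e-04). Ccr2, the chemokine receptor of monocytes, fell by 1.85 ± 0.48 on the log2 scale (SE, adjusted p = 0.0278), but leaving out islet replicate 2 or any 1 fat replicate left 0 genes of the list called lower. Leaving out fat replicate 2 or 4 left 4 called higher.

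Hyaluronan genes, the partners of Lyve1, split. Of 9 tested, 2 rose, 4 fell and 3 did not pass (median log2 difference -1.29). Gusb, lysosomal glucuronidase, rose 2.80-fold (274 ± 53.1 CPM in islet against 97.8 ± 19.1 in fat libraries, SD, n = 3; edgeR adjusted p = 0.00522). Stab1, a scavenger receptor related to the hyaluronan receptor Stab2, fell by 1.71 ± 0.27 (adjusted p = 0.00322) and Hyal2, a hyaluronidase, stood 4.75-fold lower (0.0338). Cd44, the main hyaluronan receptor of leukocytes, had 487 ± 381 CPM in islet and 278 ± 21.0 CPM in fat libraries and did not pass. With the replicate number as a block 3 were called lower. Leaving out islet replicate 2 or any 1 fat replicate left 1 gene called lower, and leaving out fat replicate 4 left 1 called higher.

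Genes of folate transport and use, the setting of Folr2, mostly did not pass. Of 9 tested, 1 fell and 0 rose in edgeR, with a median log2 difference of -0.15. Again 0 were higher in DESeq2, in limma voom and by unadjusted p below 0.05. Over all genes tested, 10.5% were called lower and 8.97% higher, so these counts are not read as particular to the list. Mtr, methionine synthase, fell by 1.16 ± 0.23 (SE, edgeR adjusted p = 0.00835). Slc19a1 and Slc46a1, the reduced and proton-coupled folate carriers, averaged 5.80 ± 1.83 and 3.73 ± 1.26 CPM in fat libraries, against 7.31 ± 1.78 and 6.43 ± 2.08 CPM in islet libraries. Calls lower came to 0 without fat replicate 2 and 2 without islet replicate 6, where 1 also rose. With islet library 6 as the only islet library it was 2.

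Complement and lectin genes, the partners of Vsig4 and Fcna, were mostly lower. Of 13 tested, 9 fell, 1 rose and 3 did not pass (median log2 difference -2.12), and the gene that rose was Itgax, which here stands for a complement receptor subunit. C4b, which encodes complement component C4, had 8, 1 and 14 counts in islet and 8059, 4677 and 8080 counts in fat libraries 2, 4 and 6. It fell by 9.13 ± 0.54 on the log2 scale (edgeR adjusted p = 6.38e-05), though its reads can include those of its near-identical copy C4a. Colec12, a membrane collectin, fell by 7.18 ± 0.54 (adjusted p = 1.09e-04). C3, whose fragments Vsig4 binds, had a log2 difference of -1.07 ± 0.54 and did not pass. Masp2, a protease that acts with ficolins, had no counts in any library. Masp1, another such protease, had 7, 3 and 6 counts in islet and 5, 0 and 0 in fat libraries 2, 4 and 6. With the replicate block 7 were called lower, and with islet library 6 as the only islet library 3 genes were called higher.

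Enzymes that act on carbonyl groups, as Cbr2 does, mostly did not pass. Besides reductases the list holds Aldh2 and Aldh3b1, aldehyde dehydrogenase genes whose enzymes oxidise aldehydes. Of 12 tested, 2 fell and 0 rose in edgeR (median log2 difference -0.38), beside 10.5% lower and 8.97% higher over all genes tested. In DESeq2 1 was higher, in limma voom 0 and by unadjusted p below 0.05 2. Dhrs3, a retinal reductase, fell by 1.55 ± 0.28 (SE, edgeR adjusted p = 0.00570), and Aldh2, mitochondrial aldehyde dehydrogenase, by 0.96 ± 0.26 (adjusted p = 0.0311). Calls higher came to 1 with no filter and when islet replicate 4 or islet replicate 6 was left out. Calls lower came to 1 when islet replicate 2 or any 1 fat replicate was left out, 4 in DESeq2 or with no filter, and 6 with islet library 6 as the only islet library.

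The interleukin 4 and STAT6 genes around Retnla went in both directions. Of 19 tested, 8 fell, 2 rose and 9 did not pass, with a median log2 difference of -2.45 (-1.95 with Ccl17, which had no islet counts, at its bound). Among those that fell, Mrc1, Ccl24 and Clec10a are also in the list of resident macrophage markers, and Klf4 and Irf4 in that of transcription factors. Among the pathway's own genes, the receptor gene Il4ra averaged 278 ± 8.72 CPM in fat and 249 ± 67.0 CPM in islet libraries, and neither it nor Stat6 (159.5 ± 16.7 and 176 ± 29.0 CPM) passed. Among known targets, Ccl24 and Clec10a, a galactose lectin, fell, Clec10a by 10.0 ± 0.73 on the log2 scale (edgeR adjusted p = 9.79e-05). Cish, a feedback inhibitor, rose 5.17-fold (adjusted p = 0.00814) and Pparg, a nuclear receptor, 2.53-fold (adjusted p = 0.0378). With the replicate block 7 were called lower. Calls higher came to 1 when islet replicate 2, fat replicate 2 or fat replicate 6 was left out and 0 when fat replicate 4 was, and Pparg also missed the threshold without islet replicate 6 (adjusted p = 0.0546).

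Of 17 transcription factor genes of macrophages, 5 fell, 3 rose and 9 did not pass (median log2 difference -0.64). Klf4 fell by 5.11 ± 0.53 on the log2 scale (1108 ± 139 CPM in fat and 32.3 ± 17.7 CPM in islet libraries; edgeR adjusted p = 4.06e-04), and Irf4 by 2.45 ± 0.28 (adjusted p = 6.19e-04). Maf fell 7.98-fold (1121 ± 49.3 CPM in fat against 141 ± 91.0 in islet libraries; adjusted p = 0.00746). Irf8 and Cebpa rose 2.49-fold and 2.51-fold (adjusted p = 0.00599 and 0.00912), while Spi1, which encodes PU.1, had a log2 difference of 0.76 ± 0.27 and did not pass. With the replicate block 4 were called lower. Calls higher came to 0 without fat replicate 2, 1 without fat replicate 4, and 5 in DESeq2 and without islet replicate 4. With islet library 6 as the only islet library 5 were called higher and 9 lower.

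The genes whose pattern over the 6 libraries was closest to each member were found by the root mean square difference of log2(CPM + 0.5), each gene centred on its own mean. Closest to Cbr2 was F13a1 (0.17), followed by Cd209f and Cd163. Closest to Folr2 was Clec10a (0.24), which like Folr2 had its islet counts mainly in library 2, followed by C4b and Fgfr1. Closest to Fcna were Mmp9 (0.25), Cd209g and Ccl24, and closest to Vsig4 were Sardh (0.10), Cd226 and Cd55, all 3 with no islet counts.

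Lyve1 was nearest to C4b (0.88), Ccl24 and Fgfr1, and Retnla to Lyve1 (0.97), Folr2 and Cd209f. Of the 18 pairs, 13 were kept with a pseudocount of 1 CPM and 8 with 0.1 CPM.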

How the data were processed

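RNA was sequenced from macrophages of 2 tissues, 3 libraries each. The deposited values are raw counts of reads per gene, not normalised. The submitters' processing notes name STAR, featureCounts, Subread 1.6.4 and GRCm38, and the sources used here do not give the annotation or the strandedness of the counting. Per the labels' protocols, libraries came from a strand-specific total RNA kit for low input.

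Gene identifiers were matched without version to GENCODE M21 (50376 of 50600) for exon length, coordinates and neighbours. The deposited counts went into edgeR 4.0.16 under R 4.3.3, with filterByExpr, TMM scaling, a robust quasi-likelihood model holding tissue alone, and Benjamini-Hochberg adjustment over 12152 genes. CPM uses TMM-scaled library sizes. SEs of log2 differences were derived from the fitted difference and its F statistic. Intervals are exact 95% binomial, computed in scipy 1.17.1, and a floor of 3 counts per library stands for 0.

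The members and lists were chosen with earlier results of these data known. Some genes are in several lists, so the counts of calls in different lists are not separate evidence. Named genes are the 6 members, the 2 smallest adjusted p in each direction per list, the 2 most abundant genes per marker list where printed, and the 3 nearest patterns per member. Other names, among them Cd163, Mrc1, Maf, Timd4 and Gas6, were chosen after their values were seen, as were the neighbouring genes and the motifs. Some genes that the rule or the lists hold are not reported here by name.

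Results were recomputed with RLE or upper-quartile scaling, with DESeq2 1.42.0, with voom in limma 3.58.1, with no filter, a filter of 1 CPM, the replicate number as a block, and leaving out each library. Same-numbered libraries share a batch label, so they were treated as pairs in that block. The design text calls the animals autologous, and whether a number is 1 animal is not stated. Across genes, deviations of same-numbered libraries from their tissue means correlated at 0.002 to 0.073.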

Additional observations from a re-analysis of the deposited data

How the results depend on the processing

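Fat exceeded islet for all 6 genes under every alternative run. The log2 ratio of mean fat to mean islet level, 10.96 for Lyve1, 10.52 for Folr2, 9.02 for Cbr2 and 9.53 for Fcna, ranged with 1 library left out from 10.38 to 11.09, 9.62 to 10.65, 8.45 to 11.85 and 9.15 to 10.07. The 9.62 of Folr2 is a bound, since no islet count was left. With the replicate number as a block (the mean of ratios within numbers, with counts under 3 set to 3), Lyve1 gave 10.05 and Folr2 9.44. In that block, Lyve1 in islet libraries 2 and 4 and Folr2 in islet libraries 4 and 6 stood at the floor. Both values are thus lower bounds, and the part of the floor in the change was not told apart from that of pairing. That block gave 884 genes higher and 1103 lower, lowered the lower calls in 4 lists (hyaluronan 4 to 3, complement and lectin 9 to 7, interleukin 4 and STAT6 8 to 7, transcription factors 5 to 4), and changed no other count of calls in the lists and no call of a gene named by the rule. Without islet libraries 2 and 4, an alternative chosen after seeing the data that leaves 1 islet library, assumed to vary like the fat libraries, Lyve1 gave 9.45, Cbr2 10.92 and the Vsig4 bound 4.78, and 2064 genes were higher and 2916 lower in islet.

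Over all genes, 1090 were higher and 1271 lower, and 466 to 1649 and 593 to 2022 with 1 library left out, lowest without a fat library and highest without islet replicate 6. Limma voom gave no value for the ratios, which come from no model. The 22 lower genes of the resident macrophage list were 22 to 24 under the alternatives run. Depth limits Vsig4 most, where 3 islet counts would stand for 3.83% to 8.15% of its fat level. The cause of these shifts was not tested.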

Other observations

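Of 6 genes of large peritoneal macrophages, the 2 most abundant in fat varied between the fat libraries. Prg4, which encodes lubricin and marks large peritoneal macrophages, had 628, 60 and 325 counts in fat libraries 2, 4 and 6, and none in islet libraries. Cxcl13, a B cell chemokine also made by cavity macrophages, had 62, 413 and 199 counts, highest where Prg4 was lowest. Serpinb2 had 92, 7 and 27 counts, Icam2 64, 19 and 20, Garnl3 62, 29 and 18, and Gata6 12, 4 and 8. The difference from the 6 markers was not tested.

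The Maf half-site of 3 of the promoters was also counted over all genes with a RefSeq promoter. It occurred in 7.79% of 899 genes called lower in islet macrophages, 2.87% of 837 called higher and 4.44% of 8943 tested. In the list of resident macrophage markers it occurred in 1 of 17 genes with a promoter entry. The genes called lower include the 3 members whose promoters are shown above. In genes called lower and higher, the STAT6 pattern occurred in 7.79% and 6.57%, and the C/EBP pattern in 12.3% and 10.6%. The PU.1 core occurred in 33.5% and 35.7%, and the pattern of interferon regulatory factors in 4.34% and 6.45%. These shares are descriptions and were not tested.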
